A study of Mus musculus with 4 samples.

Results

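The insulin-like growth factor (IGF) binding proteins, the pappalysin proteases that cut them and the pappalysin inhibitor stanniocalcin 2 were followed on mouse expression arrays of islet-like clusters and of islets of Langerhans. The family was taken by gene name and holds 10 genes of the 34821 gene names on the array: Igfbp1 to Igfbp7, Pappa, Pappa2 and Stc2. All 10 had a probe, 13 probes in all, and 3 of them (Igfbp2, Igfbp3 and Pappa2) had 2. The family was chosen from results of this same contrast, in which the large difference of Pappa was already known. The differences of the members between clusters and islets are therefore given as a description, without a test.

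The study set clusters formed in culture from pancreatic cells that resemble mesenchymal stromal cells against islets, with 2 arrays of each group and 1 dye. Both groups came from male Swiss albino mice aged 10 to 12 weeks, whose pancreata were digested in pools of 2 to 4 animals. The islets were titled as 48 h in culture and described elsewhere in the labels as freshly isolated. The clusters came from the attached, passaged cells, which were moved to serum-free medium with albumin, insulin, transferrin and selenium in low-adherence dishes for 10 days, with 0.3 mM taurine from day 3 and with 100 mM nicotinamide, 3 mM taurine and GLP-1 from day 7. The undifferentiated stromal-like cells are not analysed here, so the starting level of each gene is not known, and culture history, cell type and medium differ together between the groups and cannot be told apart.

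IGF1 and IGF2 act through the IGF1 receptor, a tyrosine kinase related to the insulin receptor, and circulate and stay in tissue mostly bound to IGF binding proteins. The 6 classical binding proteins, IGFBP1 to IGFBP6, hold the ligands with high affinity, and IGFBP7 is a more distant relative with low affinity for IGFs. PAPP-A is a secreted metalloprotease that cleaves IGFBP4 and IGFBP5, PAPP-A2 cleaves IGFBP3 and IGFBP5, and both thereby free IGF close to cells. Stanniocalcins 1 and 2 are secreted proteins that bind pappalysins and block their activity, and in the pancreas IGF signalling is known for its part in beta cell growth and survival.

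The stretches just before the transcription start of 6 members are shown, because these genes cover the range of patterns on the arrays, from near background on every array (Igfbp1) through higher in the clusters (Igfbp2 to Igfbp5) to lower in the clusters (Stc2). Each is the 150 bases upstream of a start in RefSeq (build GRCm38.p6), written 5′ to 3′ on the strand of the gene, with motif matches in capitals. The motifs searched on both strands were the TATA box TATAAA, the CCAAT box CCAAT, the GC box GGGCGG, the E-box CACGTG and the FOXO-type core TGTTTT, none of which overlapped another in these windows. Of the 10 members, 9 had such a window and Pappa had none in the table. Igfbp2 had 2 starts, of which the upstream one is shown.
Igfbp1, chr11:7197637-7197786, plus strand: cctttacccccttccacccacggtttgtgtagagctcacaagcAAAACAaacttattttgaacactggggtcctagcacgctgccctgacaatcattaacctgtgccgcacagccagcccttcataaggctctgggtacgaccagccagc
Igfbp2, chr1:72824330-72824479, plus strand: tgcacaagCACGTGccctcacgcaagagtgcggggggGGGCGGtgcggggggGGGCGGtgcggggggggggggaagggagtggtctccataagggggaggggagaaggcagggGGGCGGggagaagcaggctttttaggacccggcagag
Igfbp3, chr11:7213924-7214073, minus strand: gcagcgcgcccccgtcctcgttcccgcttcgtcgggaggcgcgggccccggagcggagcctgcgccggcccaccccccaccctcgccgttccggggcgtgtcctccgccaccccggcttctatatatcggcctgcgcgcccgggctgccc
Igfbp4, chr11:99041094-99041243, plus strand: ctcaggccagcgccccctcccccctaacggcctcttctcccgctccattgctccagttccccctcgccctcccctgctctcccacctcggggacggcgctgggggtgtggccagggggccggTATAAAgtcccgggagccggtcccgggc
Igfbp5, chr1:72874866-72875015, minus strand: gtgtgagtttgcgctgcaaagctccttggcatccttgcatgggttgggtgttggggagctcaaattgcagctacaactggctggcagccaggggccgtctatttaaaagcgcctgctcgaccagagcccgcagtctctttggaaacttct
Stc2, chr11:31370062-31370211, minus strand: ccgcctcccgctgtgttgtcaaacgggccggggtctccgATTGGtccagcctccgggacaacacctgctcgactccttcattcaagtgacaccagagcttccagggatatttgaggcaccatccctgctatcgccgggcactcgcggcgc

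The Igfbp1 window held the FOXO-type core on the minus strand, 107 to 102 bases before the start, and 11.1% of all 32851 windows of this length held that motif. The Igfbp2 window held 3 GC boxes and an E-box, and 28.6% and 4.30% of all windows held these motifs. The other Igfbp2 start held none of the 5. The Igfbp4 window held a TATA box 28 to 23 bases before the start, a motif of 7.57% of windows. The Stc2 window held a CCAAT box on the minus strand, 111 to 107 bases before the start, and 24.5% of windows held that motif on either strand. The windows of Igfbp3 and Igfbp5 held none of these letters. Among the members not printed, Igfbp6 held 2 CCAAT boxes and a distant TATA box, Igfbp7 held 4 GC boxes and Pappa2 held a FOXO-type core. GC content ranged from 49.3% for Pappa2 to 78.7% for Igfbp3, against a median of 54.0% over all windows. No motif was shared by all of the members that were higher in the clusters, and a match in these letters is only a description.

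Signals are given as log2 of the array software's processed signal minus the 75th percentile of that array, so 0 marks a probe at the 75th percentile. Probes differ in how they hybridise, and levels are therefore compared between arrays for one probe and never between genes. A probe counted as detected when the software called it well above background. Between 59.7% and 63.6% of spots were so called on each array and none was saturated. Arrays correlated at r = 0.985 within the clusters and 0.989 within the islets, and at 0.796 to 0.810 between groups. Of 24596 genes tested with limma, 54.8% differed at a Benjamini-Hochberg adjusted p under 0.05, 26.6% higher and 28.2% lower in the clusters. These shares are of the genes that passed the filter on dim probes. The split depended on the scaling, with 6545 higher and 6945 lower as reported, 7937 and 5723 with median scaling, and 6066 and 8982 when scaled over the probes that every array detected.

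Markers were checked as summed linear signal relative to the 75th percentile. The 7 fibroblast and mesenchymal markers, all 7 higher in the clusters, summed to 1378 and 1140 on the cluster arrays and to 39.4 and 47.1 on the islet arrays. The 6 endocrine markers, all 6 lower in the clusters, summed to 0.763 and 0.477 against 148 and 24.8. In the clusters Gcg, Iapp and Ppy were not well above background, whereas Ins1, Ins2 and Sst were. The 7 acinar markers, all 7 lower in the clusters, summed to 0.994 and 0.917 against 2640 and 4010; RNA of acinar genes was thus abundant on the islet arrays. The 5 duct markers were all lower and summed to at most 1.38 on the cluster arrays against 169 and 134 on the islet arrays. The 8 endothelial markers were all lower and summed to 3.68 and 3.05 against 14.4 and 14.5. Their median log2 difference was -4.39. The cluster sums came mostly from 1 Kdr probe, while the other Kdr probe was not well above background in the clusters. Cdh5, Emcn, Tek and Tie1 were not well above background there either. Of 6 macrophage markers 1 was higher and 3 were lower, with sums of 25.9 and 22.3 against 143 and 168. Most of each sum was Cd14, and the median log2 difference of the 6 was -1.57. Of 6 pericyte and stellate markers 1 was higher and 3 were lower, with sums of 44.0 and 40.2 against 17.4 and 29.8. The marker that was higher, Pdgfrb, made up most of the cluster sums, and the median log2 difference of the 6 was -1.15. The part of these cell types in the values below was not tested, and fewer cells of a type and less RNA per cell cannot be told apart in bulk RNA.

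Of the 10 members, 9 passed the filter on dim probes, which asks for detection on both arrays of at least 1 group, and these 9 were detected on all 4 arrays. Igfbp1 did not pass. The remaining binding proteins and both pappalysins were higher in the clusters, and Stc2 was lower. That is 8 higher and 1 lower. The median log2 difference over the 9 was 6.29, against -0.10 over all genes. Since the family was chosen on this contrast, nothing is read from the count or from the median.

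**Figure D1:**
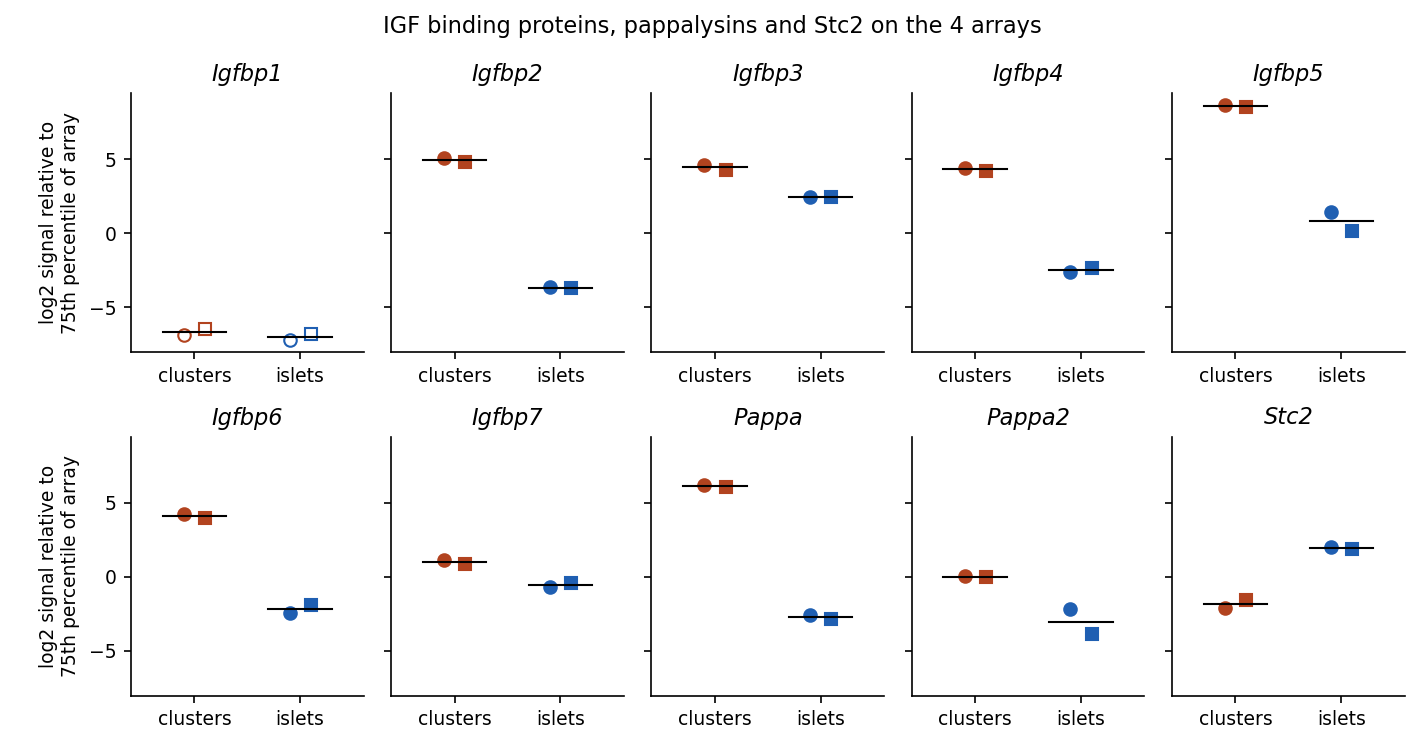
Log2 signal relative to the array's 75th percentile for the 10 genes (representing probe, and for Igfbp1 its only probe), with cluster arrays in orange and islet arrays in blue, replicate 1 as circles and replicate 2 as squares. Black bars are group means and open symbols are spots not well above background. Igfbp5 sits at 8.63 and 8.53 in the clusters with islet arrays at 1.46 and 0.18, Stc2 is the gene with both islet arrays above both cluster arrays, and Igfbp1 is open on every array.

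IGFBP1, a binding protein known mainly from liver and decidua, gave no signal well above background on any array. Its probe (mm9 chr11:7102442-7102501) read -6.82 and -6.46 in the clusters and -7.22 and -6.79 in the islets. Per the file headers, the software sets a surrogate for spots not above background, so such readings have no order and no difference is given.

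IGFBP2, which carries an RGD motif that binds integrins, gave a wide gap between groups. The Igfbp2 probe that represents the gene (mm9 chr1:72898677-72898736) read 5.06 and 4.81 in the clusters and -3.64 and -3.72 in the islets. Both islet arrays lay far below both cluster arrays, and replicates lay within 0.25 of each other. On the linear scale of the scanner the islet spots gave 26.2 and 19 units, near background. Igfbp2 averaged 4.93 ± 0.18 (SD, n = 2) in the clusters and -3.68 ± 0.056 (SD, n = 2) in the islets, a log2 difference of 8.61 ± 0.23 (SE), or 390-fold. Its second probe (mm9 chr1:72898813-72898872) read 5.32 and 5.08 in the clusters, while on the islet arrays it read -5.16 and -6.72 and was not well above background on either. For that Igfbp2 probe the clusters were at least 1191-fold higher, set against the higher of the probe's own signal and the lowest signal called well above background on each islet array. The 2 probes thus differed in size, and the value is no lower limit for the gene, whose representing probe gave 390-fold. Later values given as at least a fold use the same floor, and they are no limits under another background correction.

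IGFBP3 is the main carrier of IGFs in plasma, in a complex with the acid-labile subunit. The Igfbp3 probe that represents the gene (mm9 chr11:7106594-7106653) read 4.58 and 4.30 in the clusters and 2.43 and 2.42 in the islets. It was well above background everywhere, and the groups did not overlap. The means were 4.44 ± 0.20 (SD, n = 2) and 2.43 ± 0.0050 (SD, n = 2), and Igfbp3 differed by 2.01 ± 0.23 (SE) on the log2 scale, 4.04-fold. A second Igfbp3 probe (mm9 chr11:7107949-7108008) read -2.31 and -2.22 against -4.60 and -4.83, a difference of 2.45, and was not well above background on islet array 2. The 2 probes thus gave differences of like size.

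IGFBP4 is the classical substrate of PAPP-A. Its probe (Igfbp4, mm9 chr11:98913334-98913393) read 4.43 and 4.21 in the clusters and -2.62 and -2.36 in the islets. The cluster arrays were both high and the islet arrays both low. Igfbp4 averaged 4.32 ± 0.15 (SD, n = 2) against -2.49 ± 0.18 (SD, n = 2), a log2 difference of 6.81 ± 0.24 (SE), or 112-fold.

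IGFBP5 binds the extracellular matrix and is a substrate of both pappalysins. Its probe (Igfbp5, mm9 chr1:72904829-72904888) read 8.63 and 8.53 in the clusters and 1.46 and 0.18 in the islets. On the linear scale of the scanner the Igfbp5 spot gave 130598 and 143389 units in the clusters against 897 and 284 in the islets. The islet arrays differed from each other by 1.28 log2 units, and both lay below the clusters. Igfbp5 averaged 8.58 ± 0.073 (SD, n = 2) against 0.82 ± 0.90 (SD, n = 2), a difference of 7.76 ± 0.38 (SE), or 216-fold. Without islet array 1 the Igfbp5 difference was 8.40, and without islet array 2 it was 7.12. Islet array 1 also had the higher summed endocrine signal, 148 against 24.8 on islet array 2, and the lower acinar sum, 2640 against 4010. The part of this in the Igfbp5 values was not tested.

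IGFBP6 prefers IGF2 over IGF1. The Igfbp6 probe (mm9 chr15:101979852-101979911) read 4.22 and 3.98 in the clusters and -2.47 and -1.92 in the islets. The groups did not overlap. Igfbp6 averaged 4.10 ± 0.17 (SD, n = 2) against -2.19 ± 0.38 (SD, n = 2), a difference of 6.29 ± 0.27 (SE), or 78.4-fold.

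IGFBP7, also secreted by endothelium and fibroblasts, had the smallest gap among the 8 members that were higher in the clusters. The Igfbp7 probe (mm9 chr5:77778271-77778330) read 1.13 and 0.89 in the clusters and -0.66 and -0.42 in the islets. All 4 arrays lay within 2 log2 units, with both cluster arrays above both islet arrays. Igfbp7 averaged 1.01 ± 0.17 (SD, n = 2) against -0.54 ± 0.17 (SD, n = 2), a difference of 1.55 ± 0.24 (SE), or 2.93-fold. The endothelial markers moved the opposite way, with a median log2 difference of -4.39. Their sums, mostly Kdr in the clusters, were 3.68 and 3.05 there and 14.4 and 14.5 in the islets. The part of these markers in the Igfbp7 value was not tested.

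Pappa encodes PAPP-A. Its probe (Pappa, mm9 chr4:65018429-65018488) read 6.21 and 6.02 in the clusters and -2.56 and -2.82 in the islets. The 2 arrays of each group lay within 0.26 of each other, and the groups were far apart. Pappa averaged 6.12 ± 0.13 (SD, n = 2) against -2.69 ± 0.18 (SD, n = 2), a difference of 8.81 ± 0.24 (SE), or 448-fold, and stood 30th of 24596 genes when ordered from the highest difference. Igfbp2 stood 34th, Igfbp5 81st, Igfbp4 158th and Igfbp6 229th in the same order.

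PAPP-A2 is the pappalysin that releases IGF from IGFBP3 and IGFBP5. The Pappa2 probe that represents the gene (mm9 chr1:160641903-160641962) read 0.022 and -0.046 in the clusters and -2.16 and -3.89 in the islets. The cluster arrays were close together and the islet arrays were 1.73 apart, with both below the clusters. Pappa2 averaged -0.012 ± 0.048 (SD, n = 2) against -3.02 ± 1.22 (SD, n = 2), a difference of 3.01 ± 0.46 (SE), or 8.07-fold. Without islet array 1 the Pappa2 difference was 3.88, and without islet array 2 it was 2.15. As with Igfbp5, islet array 1 was the higher of the islet arrays. The other Pappa2 probe (mm9 chr1:160762959-160764912, a span of 1954 bases) was not well above background on any array, at -6.82 and -7.24 in the clusters and -6.55 and -6.72 in the islets.

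Stc2 encodes an inhibitor of both pappalysins and was the member that ran the other way. Its probe (Stc2, mm9 chr11:31260136-31260195) read -2.08 and -1.57 in the clusters and 2.04 and 1.88 in the islets. Both islet arrays lay above both cluster arrays, and the cluster arrays were 0.50 apart. Stc2 averaged -1.83 ± 0.35 (SD, n = 2) against 1.96 ± 0.12 (SD, n = 2), a difference of -3.78 ± 0.26 (SE), or 13.8-fold lower in the clusters. Counted from the lowest difference it stood 997th of 24596 genes.

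The paralogue Stc1, which is not a member, went the opposite way. Its probe read -0.74 and -0.91 in the clusters and -4.62 and -4.65 in the islets, where it was well above background on 1 of 2 arrays. Stc1 rose by 3.81 ± 0.23 (SE) on the log2 scale, 14.0-fold, with a limma adjusted p of 7.85e-07. Prg2, the precursor of eosinophil major basic protein and another PAPP-A inhibitor, read -6.82 and -6.45 in the clusters and -5.38 and -0.97 in the islets. Prg2 was well above background on islet array 2 alone, so it did not pass the filter and was not tested.

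**Figure D2:**
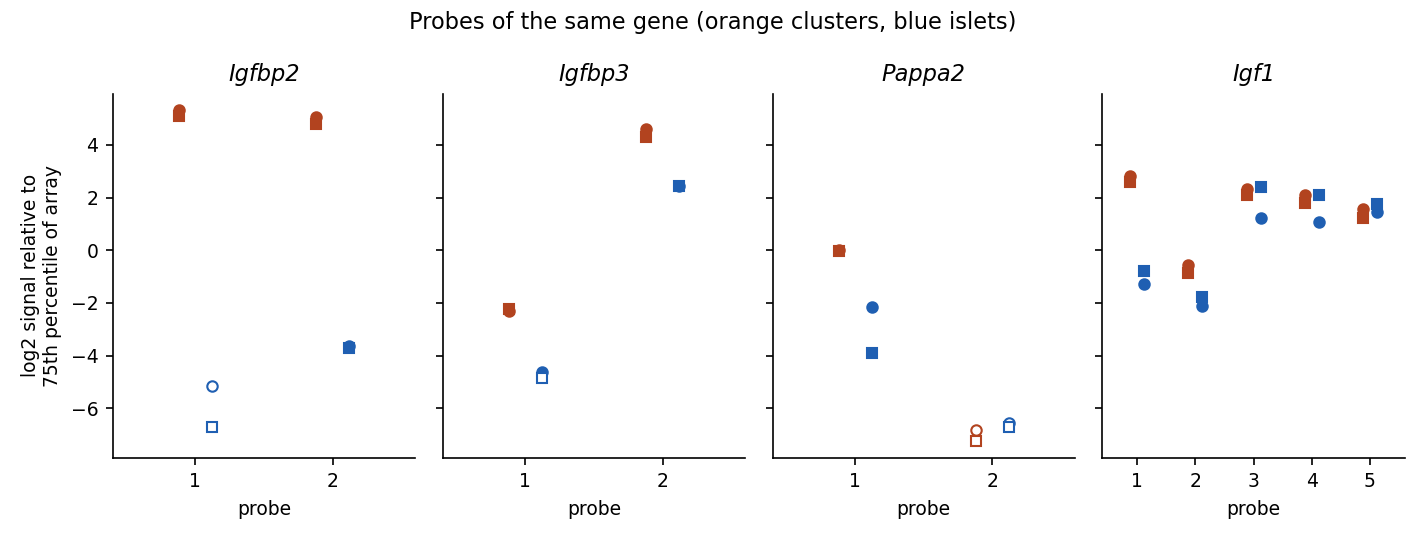
Log2 signal relative to the 75th percentile for every probe of Igfbp2, Igfbp3, Pappa2 and Igf1, with probes ordered within a gene by their difference and open symbols for spots not well above background. Both Igfbp2 probes and both Igfbp3 probes put the clusters above the islets, 1 of 2 Pappa2 probes is open on all arrays, and the differences of the 5 Igf1 probes range from 3.74 to -0.19.

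In the genome 4 of the binding protein genes lie as neighbouring pairs that converge, with the probes of a pair on opposite strands. Igfbp2 and Igfbp5 adjoin on chromosome 1, with 5956 bases between their nearest probes, and their differences were 8.61 and 7.76. Igfbp1 and Igfbp3 adjoin on chromosome 11, with 4092 bases between their probes, and there Igfbp3 was detected on every array while Igfbp1 was detected on none. The arrangement of neighbours was read from RefSeq gene order.

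The genes most like Pappa in pattern were sought by the Euclidean distance over the 4 arrays after each gene's own mean was subtracted. The closest was Igfbp2, at a distance of 0.24. It was followed by Slit2, which encodes a secreted axon guidance ligand, at 0.29, and by Fgf7, the keratinocyte growth factor, at 0.29. Slit2 read 5.77 and 5.50 in the clusters and -2.71 and -3.23 in the islets, and Fgf7 read 7.36 and 7.16 against -1.26 and -1.32. In all 14 genes lay within 0.5 of Pappa. For Stc2 the closest were Mill2, an MHC class I-like gene, at 0.065, an unnamed transcribed locus at 0.094 and Nhsl1 at 0.19, with 53 genes within 0.5. In the clusters Mill2 read -5.09 and -4.67, the locus -5.43 and -5.03, and Nhsl1 -1.96 and -1.69. The lowest signals called well above background there were -5.31 and -5.11, so background limits the differences of Mill2 and the locus. With 4 arrays such likeness says little more than that the differences were of like size.

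The ligands and receptors were no members, and their limma results are given. This list and the others outside the family were also chosen with earlier results of these data known. Their p-values and counts are therefore no independent test. Of the 14 ligands, receptors and adaptors 13 were tested, and 5 were higher in the clusters, 4 were lower and 4 did not pass, with a median log2 difference of 0.22 against -0.10 over all genes. The share past the threshold, 9 of 13, stands beside 54.8% of all genes. Values for the genes named from here on are log2 differences with limma adjusted p. Lrp1, an endocytic receptor that also binds IGFBP3, rose by 7.01 (adjusted p = 2.30e-08). Of its other probes, 1 gave 4.83, and 1 was not well above background in the islets and was at least 2.63-fold higher in the clusters. The adaptors of the receptor kinases Irs1 and Irs2 rose by 4.42 (adjusted p = 2.93e-07) and 1.97 (adjusted p = 8.72e-05). The receptor genes Igf2r, whose product clears IGF2, and Igf1r rose by 1.64 (adjusted p = 0.000248) and 1.50 (adjusted p = 0.000407).

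Igf1r itself read 4.09 and 4.00 in the clusters against 2.55 and 2.53 in the islets. Both islet arrays lay below both cluster arrays. Igfals, the acid-labile subunit that joins IGFBP3 in plasma, fell by 2.57 (adjusted p = 0.00012). Being dim in the clusters, it was at least 5.05-fold lower at the floor used for Igfbp2. With normexp background correction, which adds an offset, the Igfals difference was -0.84. Grb10, an adaptor that restrains insulin and IGF receptor signalling, fell by 1.78 (adjusted p = 0.000143), and Tmem219, a reported IGFBP3 receptor, fell by 1.66 (adjusted p = 0.000314). Irs4 fell by 1.36 (adjusted p = 0.00124).

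The ligand genes did not pass the test. Igf1 read 2.30 and 2.10 in the clusters and 1.22 and 2.41 in the islets on its representing probe (mm9 chr10:87393581-87393640). The groups overlapped, and the difference was 0.39 ± 0.36 (SE, adjusted p = 0.386). The other 4 Igf1 probes gave 3.74, 1.25, 0.36 and -0.19, and the probe with 3.74 (mm9 chr10:87399581-87399640) read 2.83 and 2.59 in the clusters against -1.28 and -0.78 in the islets. With the mean of its probes Igf1 differed by 1.11 (adjusted p = 0.00849), and without islet array 1 the difference was -0.21 (adjusted p = 0.818), while without islet array 2 it was 0.99 (adjusted p = 0.171). Igf2 read -3.99 and -3.79 in the clusters and -4.03 and -4.20 in the islets, a difference of 0.22 ± 0.23 (SE, adjusted p = 0.440). Insr, the insulin receptor, differed by -0.21 ± 0.24 (SE, adjusted p = 0.484) on its representing probe. Its other probes gave -1.48, with the cluster arrays 2.34 apart, and -2.60, with cluster array 1 not well above background. With the mean of its 3 probes Insr passed, at -1.43 (adjusted p = 0.00204). It also passed with normexp background correction, at -1.03 (adjusted p = 4.79e-05), where limma shared 1 variance over all genes. Under normexp the brightest probe was picked anew, and which Insr probe was then used is not given. Grb14 differed by -0.71 (adjusted p = 0.117).

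**Figure D3:**
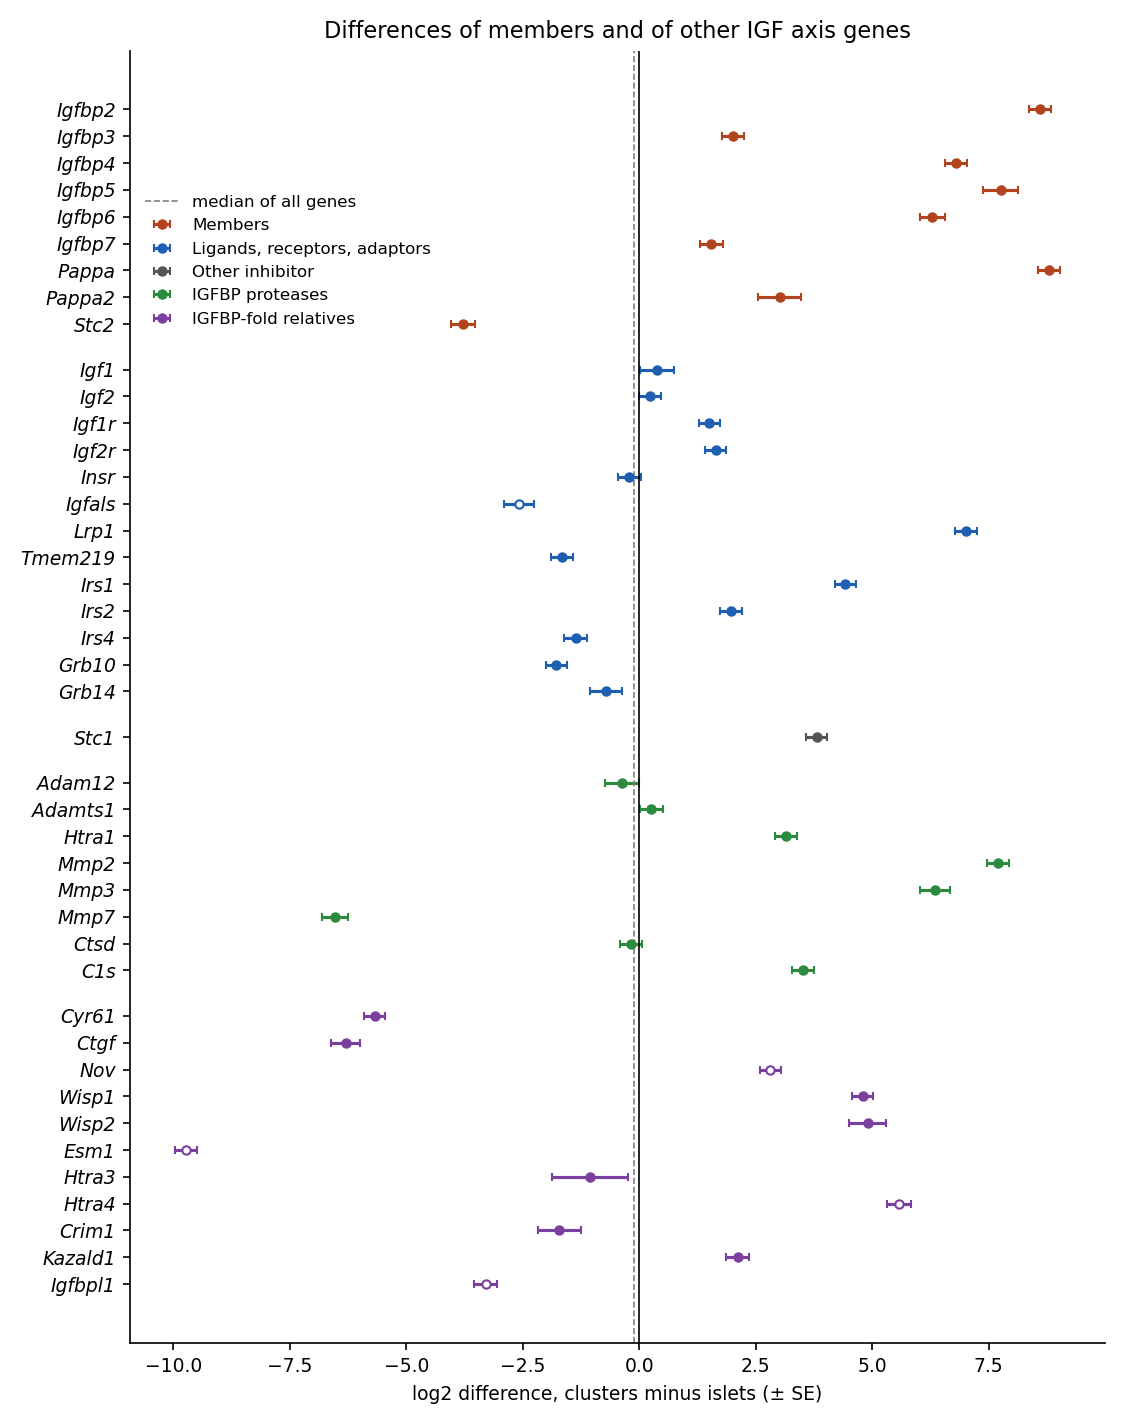
Log2 difference of clusters minus islets, with its SE, for the 9 members that passed the filter and for 33 other genes of the pathway, coloured by list. Open symbols mark genes not well above background in 1 of the groups and the dashed line is the median of all genes, -0.10. The binding proteins and pappalysins lie to the right of it, from 1.55 to 8.81, Stc2 lies at -3.78, and the ligands Igf1 and Igf2 lie near 0.

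Other enzymes reported to cleave IGF binding proteins were counted next. Of 10, 8 were tested, and 4 were higher, 1 was lower and 3 did not pass, with a median of 1.71. The 5 of 8 past the threshold stand beside 54.8% of all genes, whose median was -0.10. Mmp2, gelatinase A, rose by 7.70 (adjusted p = 1.54e-08), and Mmp3, stromelysin 1, rose by 6.36 (adjusted p = 2.50e-07). C1s (now C1s1), a complement protease that cleaves IGFBP5, rose by 3.51 (adjusted p = 1.58e-06). Mmp7, matrilysin, fell by 6.53 (adjusted p = 8.01e-08). Adam12, Adamts1 and Ctsd differed by -0.36, 0.26 and -0.17 and did not pass. Mmp2 read 6.68 and 6.38 in the clusters and -1.11 and -1.23 in the islets, and Mmp7 read -3.63 and -4.12 against 2.88 and 2.42.

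Secreted relatives that share the IGF-binding domain fold went both ways. Of 11, all tested, 5 were higher, 5 were lower and 1 did not pass, with a median of -1.06. Of all genes, 26.6% were higher and 28.2% lower, with a median of -0.10. Htra4, a serine protease, rose by 5.57 (adjusted p = 1.31e-07). It was not well above background in the islets, and was at least 15.3-fold higher at the floor used for Igfbp2. With normexp the Htra4 difference was 1.42. Wisp2 (now Ccn5) rose by 4.91 (adjusted p = 6.30e-06) and Wisp1 (now Ccn4) by 4.79 (adjusted p = 2.07e-07). In the islets Wisp2 was well above background on 1 of 2 arrays. Esm1, a proteoglycan of activated endothelium, fell by 9.74 (adjusted p = 5.17e-09), at least 778-fold at that floor, and differed by -6.72 with normexp. Ctgf (now Ccn2), a matricellular protein of the same CCN family as Wisp1 and Wisp2, fell by 6.30 (adjusted p = 2.16e-07). Cyr61 (now Ccn1), of that family too, fell by 5.68 (adjusted p = 6.38e-08). Ctgf read -3.13 and -3.34 in the clusters against 3.51 and 2.61 in the islets. Htra3 differed by -1.06 and did not pass.

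Over the 37 non-member genes, 33 were tested, of which 15 were higher, 10 were lower and 8 did not pass. Their median was 0.26. That is 25 of 33 past the threshold beside 54.8% of all genes. Mesenchymal and pancreatic markers differed on these arrays as given above, and their part in that share was not tested.

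How far the members' values moved with the processing is shown by recomputing them under 16 alternatives. Every one of the 9 kept its direction. The alternative that moved most of them by over 1.5 times was normexp background correction, which adds an offset. Under it Pappa differed by 7.61, Igfbp2 by 6.81, Igfbp4 by 5.73, Igfbp6 by 5.37, Pappa2 by 1.79 and Stc2 by -3.08. Each of these 6 moved by over 1.5 times as a fold, whereas Igfbp5, at 7.66, and Igfbp7, at 1.30, did not. Igfbp5 moved more when an islet array was left out, as given above. With the mean of its probes Igfbp2 differed by 9.87, which rests in part on the second probe's islet readings that were not well above background.

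**Figure D4:**
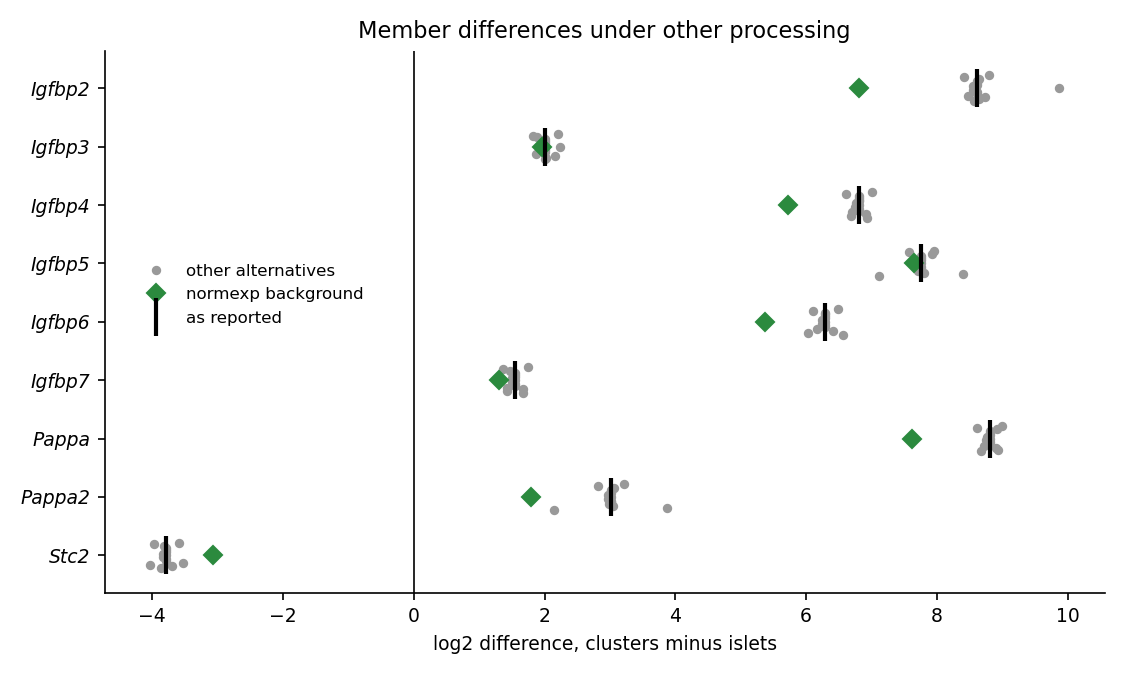
Log2 difference of clusters minus islets for the 9 members that passed the filter, with black bars for the values as reported, green diamonds for normexp background correction and grey points for the other 15 alternatives. All points of a gene lie on the same side of 0; Pappa2 spans 1.79 to 3.88 and Stc2 spans -4.03 to -3.08.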

How the data were processed

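Arrays of 1 colour (500 ng of total RNA, oligo-dT primed, Cy3) were made from 2 samples of islet-like clusters and 2 of islets. Group and replicate number come from the titles, and whether 2 samples of 1 group were separate pools is not stated, so p-values cover array-to-array spread that may be technical. Linear spot intensity was read from the deposited scanner output, extracted with Agilent Feature Extraction 11.5.1.1 on mm9 per the file headers. The software's detection and outlier flags are codes used as deposited. The authors' value table holds log2 values that correlated at r of at least 0.99995 with the scanner values. Its column medians were -3.61, -3.70, -3.50 and -3.37, it is not centred per gene, and it ran the same way. It served as an alternative.

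Log2 processed signals were set relative to the 75th percentile over non-control probes. Control and non-uniform spots were left out, and 490 of 55681 probes then had no value on at least 1 array. Probes well above background on both cluster or both islet arrays were kept (34974 probes), and a gene took its probe with the highest mean (24596 genes). Differences were fitted with limma 3.58.1 in R 4.3.3 (lmFit, eBayes), with Benjamini-Hochberg adjustment and a threshold of 0.05. The fit was tested on simulated data. All arrays lay on 1 slide with 1 scan time. The number of arrays limits the precision.

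The members and lists were chosen with earlier results of these data known. Named are all members, Igf1, Igf2, Igf1r, Igf2r, Insr, Igfals, Stc1 and Prg2, up to 3 genes in each direction per pathway list past the threshold with the largest differences, and the 3 genes nearest to Pappa and to Stc2, the lowest member. Irs4, Grb14, Adam12, Adamts1, Ctsd, Htra3 and the markers are outside this rule; all but the markers were named after their values were seen. Gene symbols are those of the array design, updated through RefSeq where noted. Replicate numbers did not pair the samples (correlation of deviations -0.02). Another background, 3 other scalings, filters, probe rules, the authors' table, other models and each array left out were the alternatives.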

Additional observations from a re-analysis of the deposited data

How the results depend on the processing

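Of 24596 genes, 13490 passed the threshold. Leaving out each array gave 7650 to 10120, with 8266 without islet array 1 and 7650 without islet array 2, and the replicate block gave 11307. Leaving out an array leaves a group with 1 sample, assumed to vary as the other group does, and for either islet array, as with normexp, limma estimated 1 common variance for all genes, so calls kept there say little about stability. Pathway genes outside the family passed in 11 to 16 (higher) and 8 to 11 (lower) cases over the alternatives, 15 and 9 under the replicate block, against 15 and 10. No member and no named gene past the threshold turned its direction under any alternative that gave it a value. Normexp moved these by over 1.5 times: Stc1 to 1.67, Igfals to -0.84, Irs1 to 3.34, Grb10 to -0.96, Mmp7 to -4.81, Htra4 to 1.42, Wisp2 to 2.16, Esm1 to -6.72, Ctgf to -5.01 and Cyr61 to -5.01. A floor moved Htra4 to 3.93, the mean of probes, of which 1 was not well above background in the islets, moved Lrp1 to 4.92, and Wisp2 was 5.58 and 4.23 without islet arrays 1 and 2. The median of all genes was -0.10, and 0.09 with median scaling or -0.29 when scaled over the probes that every array detected. Signals near background, as for Igfbp2, Pappa2, Stc1, Wisp2 and Igf2, limit those differences.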
